A study of Homo sapiens with 6 samples.

Results

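The genes described here are 10 regulators and markers of the epithelial-mesenchymal transition (EMT), namely CDH1, CDH2, VIM, FN1, SNAI1, SNAI2, ZEB1, ZEB2, TWIST1 and OVOL1, of 23228 genes in the count tables. They were chosen for their known roles, but with earlier results of these data known, so counts among them are descriptions. All 10 had a row, by symbol, in every table. RNA was sequenced from RL95-2, an established human endometrial carcinoma line, after 24 h in serum-free RPMI mixed in equal parts with either DMEM (control, 3 libraries) or adipocyte-conditioned medium (ADP-CM, 3 libraries). ADP-CM is the filtered DMEM in which mature adipocytes from human visceral fat had been kept. The comparison asks what medium kept with these adipocytes does to the transcriptome of the carcinoma cells, here in a single cell line. It cannot tell secretions of the adipocytes apart from other changes in the medium while it was kept with them. No label says whether the 3 libraries of a group came from separate cultures, so the p-values measure the spread between these libraries, which may be technical. Values after ± are SDs over the 3 libraries of a group.

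In EMT an epithelial cell loosens its junctions and takes on a mesenchymal, motile form. CDH1 encodes E-cadherin, the adhesion protein of epithelial junctions, and CDH2 encodes N-cadherin, which often replaces it in mesenchymal cells. SNAI1, SNAI2, ZEB1 and ZEB2 are zinc finger repressors that bind E-box sequences in epithelial genes such as CDH1, and TWIST1 is a basic helix-loop-helix factor of the same programme. OVOL1 is a zinc finger factor of epithelial cells that counters it. VIM, the intermediate filament protein vimentin, and FN1, the matrix protein fibronectin, are products that mesenchymal cells make in quantity.

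With ADP-CM, CDH1 and OVOL1 were lower and SNAI2 and FN1 were higher, while the changes in CDH2, SNAI1, ZEB1 and TWIST1 did not pass the test. VIM and ZEB2 had too few reads to be tested. Levels between libraries are given as CPM, the reads of a gene per 1000000 reads on genes, with library sizes scaled by TMM. Changes are log2 fold changes of ADP-CM over control (log2FC) from edgeR's quasi-likelihood test. Of the 10 genes, 2 passed an adjusted p-value of 0.01 (edgeR, over 12663 tested genes) upward and 2 downward, where 13.5% of all tested genes were raised and 13.0% lowered. With a fold change over 1.5 required as well, FN1 was raised and OVOL1 lowered, against 1.14% of all tested genes in each direction. FN1 passed the filter on low counts through the group where it was high, so its place in this count is a description only. The 3 ADP-CM libraries lay wholly above the 3 control libraries for SNAI2, FN1 and VIM and wholly below them for CDH1, OVOL1 and TWIST1. Of all tested genes, which leave out VIM and took in FN1 through its ADP-CM libraries, 22.7% were wholly above and 22.8% wholly below.

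**Figure D1:**
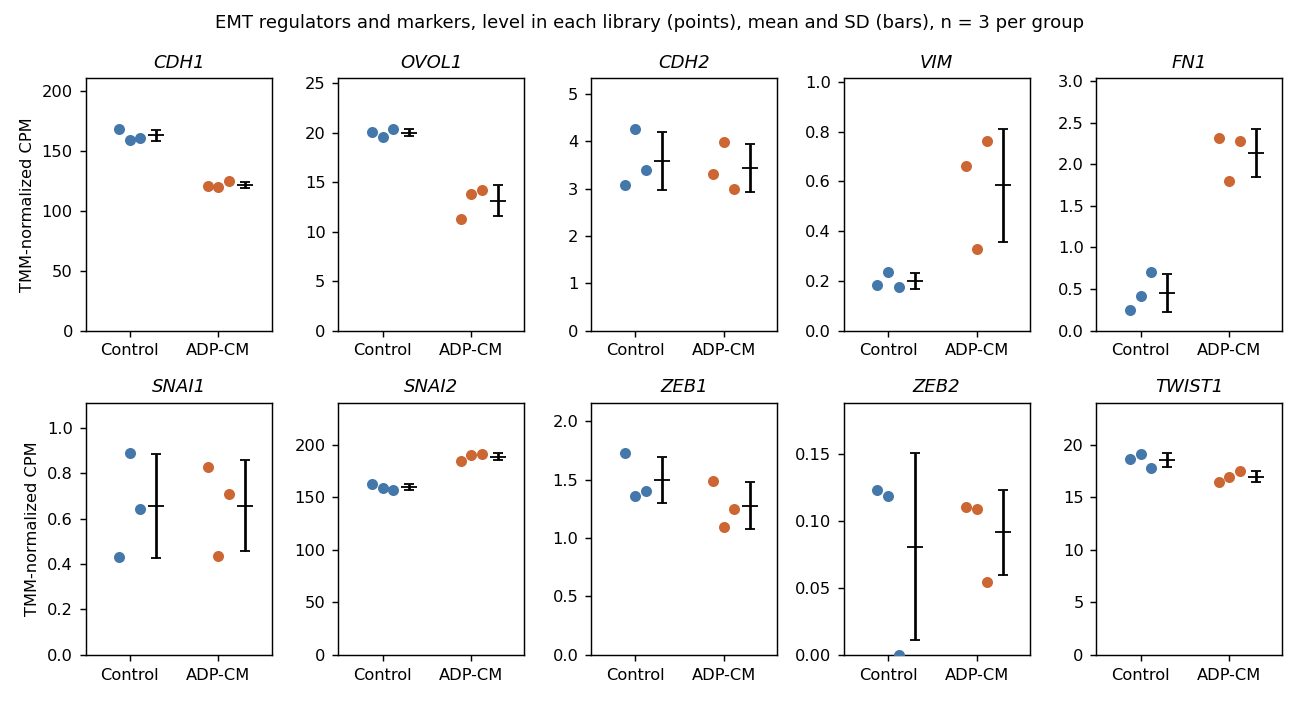
TMM-normalized CPM (vertical axes, each from 0) of the 10 genes in the 3 control libraries (blue points) and the 3 ADP-CM libraries (orange points), with the mean and SD of each group as black bars. CDH1, OVOL1 and TWIST1 lay lower and SNAI2, FN1 and VIM higher in every ADP-CM library than in any control library. Of all tested genes, which leave out VIM, 22.8% lay wholly lower and 22.7% wholly higher. The ZEB2 points stand for at most 2 reads each.

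The libraries held 16262614 to 18363033 reads on genes, and every ADP-CM library was deeper than every control library. In bulk RNA, fewer cells that express a gene and less of its RNA in each cell cannot be told apart. Reads on no annotated gene made up 10.2% to 10.3% of the control and 11.5% to 11.6% of the ADP-CM reads. Replicates differed by more than sampling noise, with chi-square values of 1.23 to 2.05 per degree of freedom. Each library was counted as a sample, although such an excess does not show that they came from separate cultures. The cells carried the transcripts of their labelled epithelial origin. KRT8 and KRT18, the keratin pair of simple epithelium, stood at 1843 ± 14.0 and 1508 ± 28.0 CPM in control, and all 7 epithelial markers examined passed the filter on low counts.

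CDH1 (chromosome 16, 68771195 to 68869440, plus strand of GRCh37) measured 168, 159 and 161 CPM in control replicates 1, 2 and 3. In ADP-CM replicates 1, 2 and 3 it measured 120.4, 119.7 and 125 CPM. The groups were far apart against the spread within them, with means of 163 ± 4.92 and 122 ± 2.62 CPM, a fall of the mean by 25.3%. Its log2FC was -0.42 (SE 0.030, edgeR adjusted p = 1.14e-18). The lowest CDH1 count in a library was 2179 reads. The fall was smaller than 1.5-fold, with a 95% interval of the fold from 0.716 to 0.779.

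OVOL1 (chromosome 11, 65554534 to 65564685, plus strand) measured 20.1, 19.6 and 20.4 CPM in the control libraries and 11.3, 13.9 and 14.2 CPM in the ADP-CM libraries. Every ADP-CM value was lower than every control value, and ADP-CM replicate 1 was the lowest. Its log2FC was -0.61 (SE 0.077, edgeR adjusted p = 1.76e-09), on 205 to 348 reads per library. Without ADP-CM replicate 1 the log2 fold change was -0.51, past the limit on the adjusted p-value (9.48e-07, edgeR) but no longer past a fold change of 1.5. In the annotation 27.3% of the exonic bases of OVOL1 lie opposite an antisense gene, and while the library kit keeps the strand, the strand setting of the counting is not given in the sources used here. OVOL2, the paralog of OVOL1, was singled out after its values were seen. Its control level was 7.62 ± 0.561 CPM and its level with ADP-CM 9.20 ± 1.10 CPM, and its adjusted p-value of 0.0421 (edgeR) was short of the threshold.

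CDH2 (chromosome 18, 25512843 to 25757910, minus strand) was rare. The control libraries held 50, 72 and 58 reads of it, against 60, 73 and 55 with ADP-CM. These ranges overlapped almost completely, at 3.58 ± 0.613 and 3.43 ± 0.505 CPM. Its log2FC was -0.06, with a 95% interval of -0.40 to 0.27 and an adjusted p-value of 0.798 (edgeR). A fall to 0.760 of the control level or a rise to 1.20 times that level would both lie within this interval. The interval reached neither a 1.5-fold rise nor a 1.5-fold fall.

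Cadherins were also compared within each library, per kilobase of exon. For each 1000 length-scaled reads of CDH1 the control libraries held 13.0, 19.0 and 14.9 of CDH2, against 19.5, 23.5 and 17.0 with ADP-CM. The groups overlapped, since control replicate 2 lay above ADP-CM replicate 3. E-cadherin transcripts outnumbered N-cadherin transcripts in all 6 libraries. CDH1, the base of this ratio, was itself lower with ADP-CM.

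SNAI2 (SLUG, chromosome 8, 49830157 to 49834299, minus strand) was the most abundant of the regulators. It measured 163, 159 and 157 CPM in the control libraries and 185, 190.3 and 191 CPM in the ADP-CM libraries. All ADP-CM values were above all control values, with means of 159.6 ± 2.89 and 189 ± 3.45 CPM. The rise of the mean was 18.2%, with a log2FC of 0.24 (SE 0.028, edgeR adjusted p = 6.79e-11). The 95% interval of the fold ran from 1.14 to 1.23, so the rise was well under 1.5-fold.

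SNAI1 (SNAIL, chromosome 20, 48599517 to 48605423, plus strand), the paralog of SNAI2, was near the detection limit. The control libraries held 7, 15 and 11 reads of it, against 15, 8 and 13 with ADP-CM, and the groups overlapped. Its log2FC was 0.00, and its 95% interval of -0.74 to 0.74 leaves room for a change of over 1.5-fold either way. Its adjusted p-value was 0.999 (edgeR).

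TWIST1 (chromosome 7, 19060614 to 19157259, minus strand) measured 18.7, 19.1 and 17.8 CPM in the control libraries and 16.5, 16.9 and 17.5 CPM in the ADP-CM libraries. The ADP-CM values lay just below the control values, but the difference did not pass the test, with a log2FC of -0.13 (95% interval -0.27 to 0.01) and an adjusted p-value of 0.150 (edgeR). Each library held 298 to 323 TWIST1 reads, which was a smaller share of the reads in the deeper ADP-CM libraries.

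ZEB1 (chromosome 10, 31607424 to 31818742, plus strand) was also rare. The control libraries held 28, 23 and 24 reads of it, against 27, 20 and 23 with ADP-CM. The groups overlapped, and the log2FC of -0.23 had a 95% interval of -0.73 to 0.28 and an adjusted p-value of 0.520 (edgeR). ZEB1-AS1, the antisense neighbour that lies opposite 4.58% of the exonic bases of ZEB1, had 54 to 63 reads per library, more than ZEB1 itself. ZEB2 (chromosome 2, 145121931 to 145278624, minus strand) was at the detection limit in both groups. It had 2, 2 and 0 reads in control and 2, 2 and 1 in ADP-CM, never above the floor of 3 reads, which corresponds to 0.163 to 0.185 CPM in these libraries. No fold change is given for ZEB2, since no difference was detectable at this depth.

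FN1 (chromosome 2, 216225163 to 216300796, minus strand) was close to the detection limit in control. The control libraries held 4, 7 and 12 reads of it, against 42, 33 and 42 with ADP-CM. The lowest ADP-CM count was well above the highest control count, although both are small. FN1 rose from 0.454 ± 0.230 to 2.13 ± 0.291 CPM, with an edgeR adjusted p-value of 2.01e-08 and a 95% interval of the fold from 3.01 to 7.03. It passed the filter on low counts through its 3 ADP-CM libraries, with a single control library at 10 reads or more, so under this filter a gene this rare in control could be tested only if it differed. Fitted by edgeR with no filter on low counts, FN1 had a log2FC of 2.20 and an adjusted p-value of 1.02e-11, the smallest among the alternatives. DESeq2 gave it an adjusted p-value of 7.28e-06, the largest among them. The fitted log2FC of 2.20 became 2.66 without control replicate 3, the control library with the most FN1 reads, and 1.92 without control replicate 1, the one with the fewest.

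VIM (chromosome 10, 17270240 to 17279592, plus strand) was at or near the detection limit. The control libraries held 3, 4 and 3 reads of it, against 12, 6 and 14 with ADP-CM. Every ADP-CM count was above every control count, but with so few reads VIM failed the filter. The pooled reads, scaled for depth, were 2.93 times as many in ADP-CM, with a 95% counting interval of 1.41 to 6.68 that does not include the spread between libraries. An exact two-sided permutation test of the CPM gave p = 0.1, the smallest value that 3 libraries against 3 can give. Fitted by edgeR without a filter on low counts, VIM had a log2FC of 1.52 and an adjusted p-value of 0.0254, short of the threshold of 0.01. VIM also entered the fit when any of 4 single libraries was left out. Without control replicate 1, 2 or 3 its edgeR adjusted p-values were 0.0539, 0.0375 and 0.0573, short of the threshold. Without ADP-CM replicate 2 the value was 0.00682 (edgeR), but that leaves out the ADP-CM library with the fewest VIM reads and admits VIM through the other two, so it lends a rise no support. In the annotation 24.6% of the exonic bases of VIM lie opposite antisense genes.

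The higher FN1 and VIM reads were set beside markers of cells that adipose tissue could hold. Among 10 fibroblast and stromal markers, COL1A2, DCN, THY1, PDGFRA and POSTN had at most 3 reads in any library. The summed level of this list was 68.7 to 75.3 CPM in control and 93.7 to 96.8 CPM in ADP-CM, nearly all of it from COL1A1 and FAP, the fibroblast activation protein. FAP, singled out after its values were seen, rose from 7.38 ± 0.741 to 16.0 ± 1.37 CPM (edgeR adjusted p-value 1.21e-15). Among 12 adipocyte markers, ADIPOQ, LEP and CIDEA had no read in any library, and FABP4 had 4 to 11 reads per library. Their summed level was 15.3 to 16.7 CPM in control and 14.2 to 16.4 in ADP-CM, nearly all from CFD and LIPE. CFD measured 9.46 ± 0.0406 CPM in control and 10.4 ± 1.04 with ADP-CM, short of the threshold (adjusted p-value 0.274, edgeR). LIPE fell from 5.77 ± 0.599 to 3.76 ± 0.272 CPM (edgeR adjusted p-value 0.000344). The summed level of 10 leukocyte markers was 7.08 to 8.35 CPM in control and 9.92 to 12.1 in ADP-CM, nearly all from CD68. CD68 rose from 7.43 ± 0.669 to 10.7 ± 1.03 CPM (edgeR adjusted p-value 3.72e-05), while AIF1, CD3D and TYROBP had no read. COL1A1 had 1005 to 1118 reads and FAP 114 to 133 in the control libraries. Like FAP, COL1A1 was higher with ADP-CM, at 76.7 ± 0.839 CPM against 62.3 ± 3.73 in control (edgeR adjusted p-value 5.94e-09). The part of such cells in the FN1 and VIM reads was not tested beyond these levels.

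The sequences upstream of FN1 and VIM are shown because these are the mesenchymal products with higher reads in ADP-CM. RefSeq windows on GRCh38.p14 were held for 5 of the 10 genes, and CDH1, SNAI1, SNAI2, TWIST1 and OVOL1 had no entry. Those of FN1 and VIM each had a single exact match in GRCh37, whose coordinates are given. The windows are the 250 bases before the transcription start, written 5′ to 3′ on the strand of the gene. They were searched on both strands for the E-box of the SNAI and ZEB factors (CACCTG or CAGGTG), the cyclic AMP response element (TGACGTCA), the CCAAT box (CCAAT or ATTGG), the AP-1 site (TGACTCA or TGAGTCA) and the GC box (GGGCGG or CCGCCC), and the matches are in capitals.
FN1, chr2:216300792-216301041, minus strand: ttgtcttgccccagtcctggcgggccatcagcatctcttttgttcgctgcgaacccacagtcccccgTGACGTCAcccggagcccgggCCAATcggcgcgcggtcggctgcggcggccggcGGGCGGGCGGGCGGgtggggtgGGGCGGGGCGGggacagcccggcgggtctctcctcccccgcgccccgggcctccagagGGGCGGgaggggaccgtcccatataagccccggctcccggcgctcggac
VIM, chr10:17269990-17270239, plus strand: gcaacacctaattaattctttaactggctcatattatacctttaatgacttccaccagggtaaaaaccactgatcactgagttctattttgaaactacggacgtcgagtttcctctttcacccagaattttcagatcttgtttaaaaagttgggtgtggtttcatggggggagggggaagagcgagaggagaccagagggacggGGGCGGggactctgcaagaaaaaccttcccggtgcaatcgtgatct

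The FN1 window held a cyclic AMP response element 183 to 176 bases before the start, a CCAAT box 162 to 158 bases before it and 6 GC boxes, some of which overlap. The cyclic AMP response element occurs in 1.65% and the CCAAT box in 32.0% of all 35116 windows of this length. The VIM window held 1 GC box, a motif found in 42.6% of all windows. Neither window held an AP-1 site, present in 4.20% of all windows, or the E-box, present in 17.5%. Of the 7 ZEB1 windows 2 held the E-box, and the windows of CDH2 and ZEB2 held none. These matches describe the letters only, and no binding was measured.

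Levels of different genes were compared as CPM per kilobase of exon. In control, SNAI2 stood highest at 48.6 ± 0.879, followed by CDH1 at 26.8 ± 0.809, TWIST1 at 9.29 ± 0.328 and OVOL1, between 5.15 and 5.35. A wide gap separated these 4 genes from the others, which all stood below 1. CDH2 at 0.417 ± 0.0714 and SNAI1 at 0.384 ± 0.134 did not differ beyond their spread, and ZEB1 followed at 0.173 ± 0.0230. This tie depends on the length used, since per kilobase of the longest transcript CDH2 stood at 0.891 ± 0.153 in control, with every library above those of SNAI1 at 0.384 ± 0.134. VIM at 0.0385 ± 0.00639 and FN1 at 0.0264 ± 0.0134 overlapped between libraries, and ZEB2 was lowest. By the same measure KRT18 stood at 491 ± 9.12 in control.

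With ADP-CM the order on this scale was kept, except that FN1 at 0.124 ± 0.0169 and VIM at 0.113 ± 0.0440 changed places within their spread. Per kilobase of the longest transcript, the ADP-CM means of FN1 (0.233 ± 0.0317) and VIM (0.219 ± 0.0854) also passed ZEB1 (0.204 ± 0.0323), with overlapping libraries. For each 1000 length-scaled reads of CDH1 the control libraries held 1.29, 1.75 and 1.28 of VIM, against 6.46, 3.21 and 7.17 with ADP-CM. The ADP-CM ratios were all higher, and yet VIM stayed far below CDH1 in each library.

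**Figure D2:**
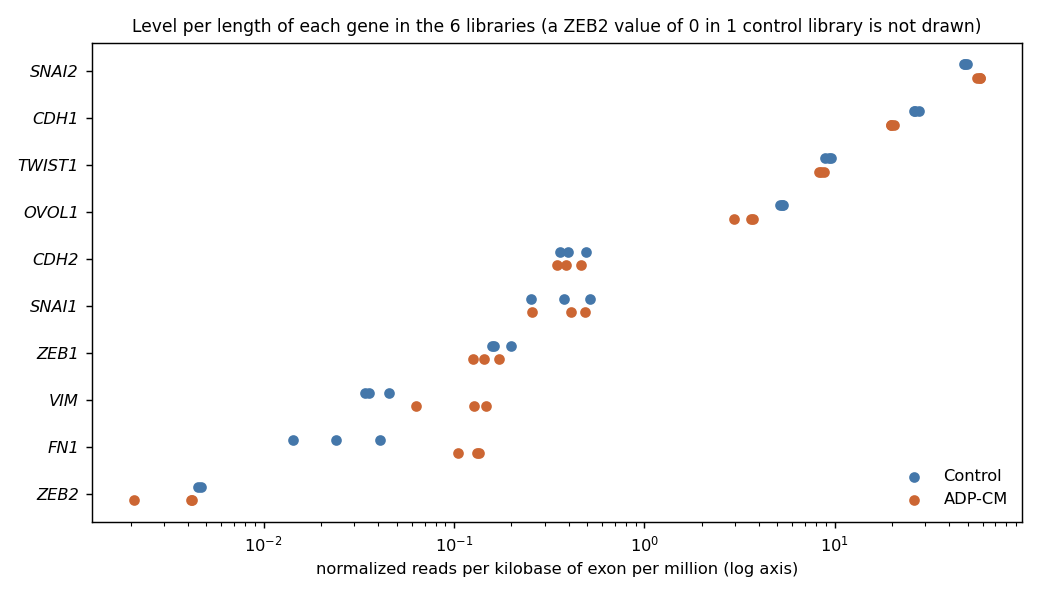
CPM per kilobase of exon (horizontal log axis) for the 10 genes in the 3 control (blue) and 3 ADP-CM (orange) libraries, ordered by the control mean. SNAI2, CDH1, TWIST1 and OVOL1 lie above 1 in every library and the other 6 genes below it, and the ZEB2 value of 0 in control replicate 3 is not drawn.

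**Figure D3:**
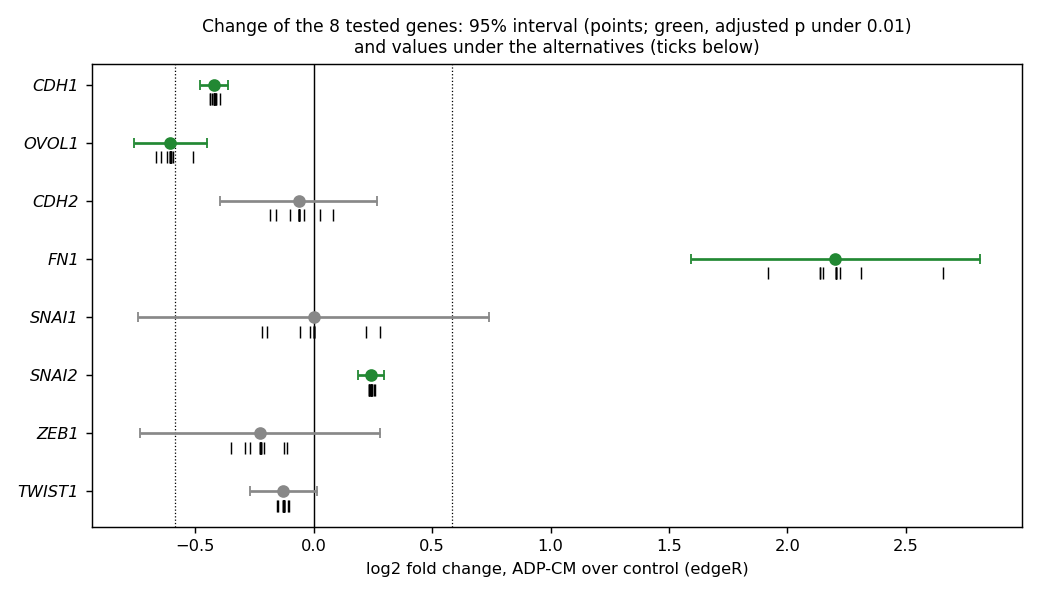
Log2 fold change of ADP-CM over control (horizontal axis) from edgeR for the 8 tested genes, with 95% intervals, in green where the adjusted p-value was under 0.01, and black ticks for the same value under each alternative. The intervals of CDH1 and SNAI2 are narrow and on opposite sides of 0, that of FN1 is wide and far to the right, and those of CDH2, SNAI1, ZEB1 and TWIST1 include 0. Dotted lines mark a 1.5-fold change.

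Genes that act with the 10 were followed in 9 lists, written by hand with earlier results of these data known. Of their 141 genes 109 were tested. By the same limit of 0.01, 28 of these rose and 19 fell, and with a fold change over 1.5 the counts were 8 and 3. Their median log2FC was 0.00, as it was over all tested genes. The lists carry no test of their own, and the counts are to be read beside the shares over all genes given above.

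Among other cadherins, CDH3 (P-cadherin) was abundant and fell slightly, from 260.4 ± 4.05 to 240.4 ± 6.63 CPM, with an edgeR adjusted p-value of 0.000149. CDH5 (VE-cadherin), singled out after its values were seen, was also expressed and was not past the threshold (adjusted p-value 0.0286, edgeR), while CDH4, CDH6, CDH11 and CDH13 had no read. Of 23 tested catenins and epithelial junction genes, 5 were raised and 6 lowered, none by more than 1.5-fold, with a median log2FC of -0.05. JUP (plakoglobin), which links cadherins to the cytoskeleton, fell with a log2FC of -0.33, and CRB3, a polarity protein of the apical membrane, fell with one of -0.43. CTNNB1 (beta-catenin) and DSG2 (desmoglein 2) both rose with a log2FC of 0.17. Of these 4, CRB3 had the weakest support (edgeR adjusted p = 2.53e-06). EPCAM, an epithelial surface marker singled out after its values were seen, measured 195 to 203 CPM in the control libraries and 195 to 206 with ADP-CM, with a log2FC of 0.01.

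Of 12 tested epithelial transcription and splicing factors, 1 was raised and 4 were lowered. ELF3, an epithelial ETS factor, fell from 367 ± 5.59 to 254 ± 5.47 CPM, a log2FC of -0.53. EHF, a related ETS factor, moved the other way, from 5.57 ± 0.604 to 10.8 ± 0.362 CPM, a log2FC of 0.96. KLF4 fell with a log2FC of -0.16. The largest adjusted p-value of the 3 was 2.24e-05 (edgeR). ESRP1, a splicing factor of epithelial cells singled out after its values were seen, had the same mean in both groups, 118 ± 1.21 and 118 ± 0.505 CPM.

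Of 13 tested other EMT transcription factors, 5 were raised and 1 was lowered. HMGA2, a chromatin protein that activates SNAI genes in other cells, rose from 6.30 ± 0.674 to 10.5 ± 1.55 CPM, a log2FC of 0.74 with an edgeR adjusted p-value of 2.00e-07. ETS1 rose with a log2FC of 0.25, and FOXC1 fell with one of -0.21. PRRX1 had no read, and KLF8 had at most 2. Of 14 co-repressors and turnover factors of the SNAIL and ZEB proteins, 2 were raised and 1 was lowered, all by little. CTBP2, a co-repressor that ZEB1 recruits, rose with a log2FC of 0.17, GSK3B, a kinase that marks SNAIL for degradation, rose with one of 0.08, and EZH2, a histone methyltransferase, fell with one of -0.16. The call of GSK3B was lost with DESeq2 (adjusted p-value 0.0414) and when any single library other than ADP-CM replicate 3 was left out (edgeR adjusted p-values 0.0172 to 0.0590). That of EZH2 was lost with DESeq2 (adjusted p-value 0.0107) and without control replicate 1 (0.0106, edgeR).

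Of 34 mesenchymal effectors 21 were tested, and 8 were raised and 1 was lowered, with a median log2FC of 0.04. LOXL2, a collagen cross-linking enzyme, rose with a log2FC of 0.99, COL5A1, a fibrillar collagen chain, one of 0.63, and CD44, a hyaluronan receptor, one of 0.44. TAGLN, an actin-binding protein of contractile cells, fell from 24.3 ± 1.10 to 13.9 ± 1.10 CPM, a log2FC of -0.81. These 4 genes had adjusted p-values of 5.06e-15 or less (edgeR). MMP2, MMP3 and THY1 had no read, and COL1A2, TNC, VCAN, DCN and POSTN had at most 3 in any library.

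Of the 5 tested fibronectin receptors, 3 were raised and 1 was lowered. ITGB6, the integrin subunit of epithelial cells that binds fibronectin and latent TGF-beta, rose from 9.38 ± 0.119 to 22.4 ± 0.615 CPM, a log2FC of 1.26 with an edgeR adjusted p-value of 1.25e-21. ITGA5, which with ITGB1 forms the main fibronectin receptor, had 17, 11 and 17 reads in control and 43, 37 and 30 in ADP-CM, a log2FC of 1.16 with an edgeR adjusted p-value of 0.000287. With DESeq2 the adjusted p-value of ITGA5 was 0.0108, short of the threshold. ITGB1 rose with a log2FC of 0.09, and SDC4, a syndecan that binds fibronectin, fell with one of -0.44.

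Of the 6 tested genes listed for intermediate filaments beside vimentin, 3 keratins were lowered. The list also holds PLEC, the gene of plectin, which binds such filaments and is not one itself. NES, the gene of nestin, singled out after its values were seen, had a log2FC of 1.16 on at most 24 reads per library and was short of the threshold (adjusted p-value 0.0261, edgeR). KRT19 fell from 267 ± 3.88 to 148.6 ± 4.14 CPM, a log2FC of -0.85 with an edgeR adjusted p-value of 7.46e-37, among the 5 smallest p-values of all tested genes. KRT8 fell with a log2FC of -0.36 (edgeR adjusted p-value 7.89e-28). DES and GFAP, the filament genes of muscle and glia, had no read.

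Of 13 tested TGF-beta inducers and transducers, the pathway that commonly starts EMT, 4 were raised and 1 was lowered. TGFBR2, the receptor subunit that binds the ligand, rose from 30.9 ± 2.30 to 51.1 ± 1.38 CPM, a log2FC of 0.73. SMAD3, a transducer of the signal, had a log2FC of 0.30. SMAD6, an inhibitor of BMP signalling, fell with a log2FC of -0.85. The largest adjusted p-value of the 3 was 1.12e-14 (edgeR).

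**Figure D4:**
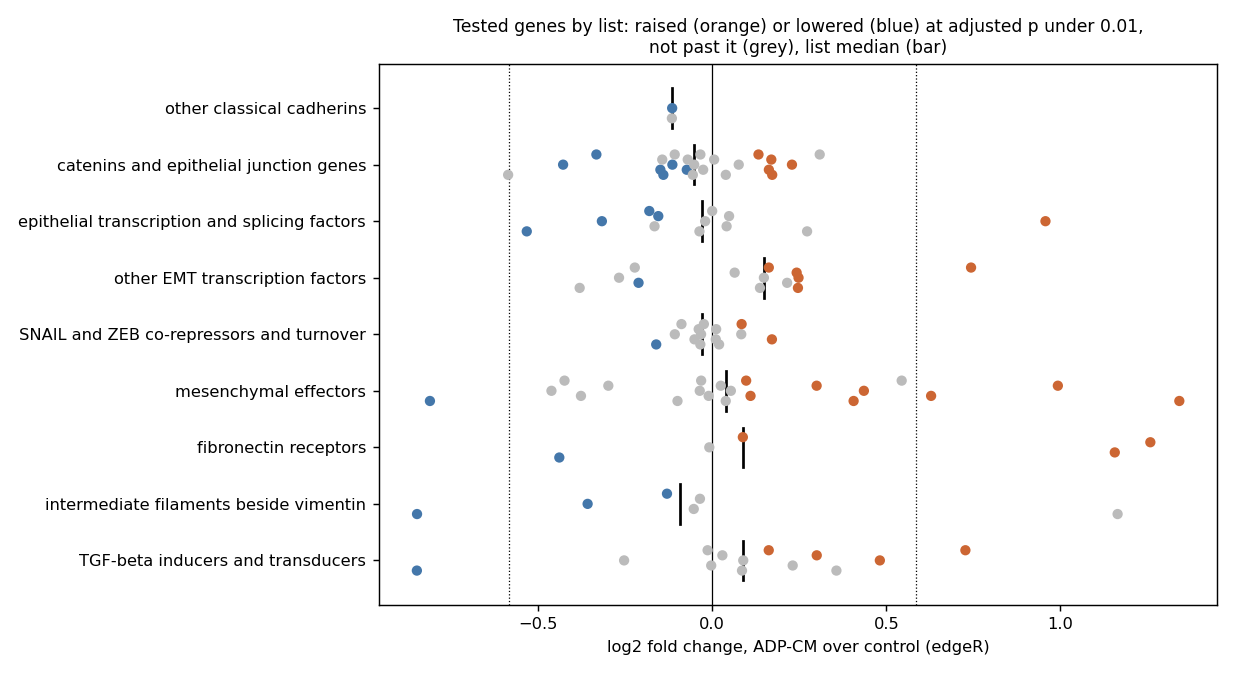
Log2 fold change of ADP-CM over control (horizontal axis) for the tested genes of the 9 lists (rows), in orange or blue where raised or lowered at an adjusted p-value under 0.01 (edgeR) and in grey otherwise, with the median of each list as a black bar. All medians lie within 0.15 of 0, and genes past a 1.5-fold change (dotted lines) are found on both sides.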

How the data were processed

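RNA of RL95-2 cells was measured in 3 control and 3 ADP-CM libraries, grouped by their titles. The deposited files hold raw read counts per RefSeq gene, made by the authors with HTSeq after TopHat2 alignment on hg19, and the versions and strand setting are not given in the sources used here. Lines that name no gene held 31.4% to 33.0% of the counted reads and stayed out of all totals. In R 4.3.3, edgeR 4.0.16 was run with TMM, filterByExpr (minimum count 10) and its quasi-likelihood test, with p-values adjusted by Benjamini-Hochberg over all tested genes, at limits of 0.01 and 1.5-fold taken from the study, whose DESeq was replaced by edgeR. The common biological coefficient of variation was 1.67%. Standard errors were derived from the F statistic. A floor of 3 reads marks the detection limit, and floors and counting intervals cover counting error only. Alternatives were DESeq2 1.42.0, other size factors and filters, a replicate term and single libraries left out. Positions, exon lengths and antisense overlaps came from GENCODE release 44 on GRCh37, the assembly that hg19 names, and 181 of 183 list symbols matched. The genes and lists were chosen with earlier results of these data known. Context genes named are those past both limits and up to 2 per list and direction with the smallest adjusted p-values, and others are marked as singled out afterwards or named for their marker list or low reads. A gene that this rule names is not reported here.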

Additional observations from a re-analysis of the deposited data

How the results depend on the processing

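All 8 tested EMT genes kept their side of the 0.01 threshold in every one of the 12 alternatives that fitted them. FN1 could not be fitted with at least 10 counts in every library, and SNAI1 could not with that filter and had no adjusted p-value from DESeq2. CDH1 ranged from -0.44 to -0.40, SNAI2 from 0.23 to 0.26, OVOL1 from -0.67 to -0.51 and FN1 from 1.92 to 2.66 on the log2 scale. The signs of CDH2 and SNAI1, neither of them called, changed among the alternatives. With at least 10 counts in every library, 1 EMT gene was raised and 0 passed the fold limit, since FN1 was not tested. With DESeq2, 1030 of all genes were raised and 953 lowered, or 83 and 93 with the fold limit, and the cause was not tested. Leaving out single libraries gave 0 to 1 lowered EMT genes past the fold limit (0 without ADP-CM replicate 1, through OVOL1), 1 to 2 raised past it and 2 to 3 raised in all (the higher counts without ADP-CM replicate 2, through VIM, which was short of the threshold when a control library was left out instead).

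Of the 47 called genes of the other lists, 37 kept their call in all alternatives. Lengths of the longest transcripts in place of all exons moved the mean CDH2 per 1000 CDH1 to 26.4 in control and 33.9 in ADP-CM, and the mean VIM to 2.21 and 8.63, with ADP-CM higher in both. They also moved CDH2 itself from 0.417 to 0.891 CPM per kilobase in control, which ended its tie with SNAI1. In ADP-CM they put the means of FN1 and VIM above that of ZEB1. Same-numbered libraries of the groups correlated at 0.0634, 0.0255 and 0.0918 in their deviations from the group means, below 0.1, although each library correlated best with its own number. With the replicate block, 2 EMT genes were raised and 2 lowered, and 1786 and 1716 of all genes. Depth limits SNAI1, ZEB1, ZEB2 and VIM, each with at most 28 reads per library.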

Other observations

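CDH5, the cadherin of endothelial junctions, had 985 to 1127 reads in each of the 6 libraries, 63.5 ± 2.94 CPM in control and 58.6 ± 3.68 in ADP-CM. Other endothelial markers had few reads or none. KDR and EMCN had no read, and PECAM1 and CLDN5 had at most 1 in any library. VWF had 8 reads in each control library and 2, 6 and 1 in the ADP-CM libraries, and TEK had 2 to 11 per library. ESAM, an adhesion molecule on the same marker list, fell from 1.80 ± 0.200 to 0.968 ± 0.418 CPM (edgeR adjusted p-value 0.00700). PAX8, a lineage factor of the Müllerian epithelium, rose from 150.1 ± 6.12 to 182 ± 7.41 CPM, a log2FC of 0.28 with an edgeR adjusted p-value of 1.53e-11. Of the 7 epithelial markers PAX8 was raised and 5 were lowered, where 13.5% of all tested genes were raised and 13.0% lowered. Among the 5, the call of CLDN4, a tight junction claudin, was lost in 6 of 12 alternatives, DESeq2 among them (adjusted p-value 0.0711). CDH5, ESAM, PAX8 and CLDN4 were singled out after their values were seen.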
